A study of Homo sapiens with 24 samples.

Results

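The genes described here encode the enzymes that modify and cross-link collagen, and their RNA was followed in A2780 cells kept in low oxygen. They are 10 gene symbols, taken by name from the 22446 symbols of the deposited expression table. P4HA1, P4HA2 and P4HB are subunits of collagen prolyl 4-hydroxylase, PLOD1, PLOD2 and PLOD3 are lysyl hydroxylases, and LOX, LOXL1, LOXL2 and LOXL4 belong to the lysyl oxidase family. All 10 symbols had a row in the table.

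A2780 is an established human ovarian cancer cell line. Hypoxia means culture in 1% oxygen and normoxia means culture under normal oxygen, both with 5% CO2. For all groups alike the labels give fetal bovine serum at 10 to 15%. Cells of both were collected after 6 hr, 48 hr and 6 days. The labels name no genetic change or drug in any group. Each of the 6 groups had 2 RNA libraries, 12 in all, and the 24 samples of the series are the gene table and the precursor miRNA table of these libraries. Nothing in the labels tells whether both libraries of a pair stem from one culture dish or from several, so the p values below measure the spread between libraries, which may be technical.

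Collagen chains are hydroxylated in the endoplasmic reticulum while they are made. Prolyl 4-hydroxylase pairs a catalytic alpha subunit (P4HA1, P4HA2 or P4HA3) with P4HB, which is also protein disulfide isomerase, and the hydroxyproline it makes holds the collagen triple helix together at body temperature. The lysyl hydroxylases make hydroxylysine, PLOD2 mainly in the telopeptides at the chain ends, and outside the cell LOX and its relatives oxidize lysine and hydroxylysine so that neighbouring chains become cross-linked. The hydroxylases use oxygen, iron and ascorbate, the lysyl oxidases use copper and oxygen, and several of these genes are known targets of the hypoxia-inducible factor (HIF) in other cells.

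HIF binds a short core, ACGTG or GCGTG. The promoters of 5 of the 6 members higher in hypoxia at all 3 times are therefore printed here with that core marked. LOXL2, the other of these, had no promoter in the set used here. The windows come from RefSeq (build GRCh38.p14) and run from 250 bases before to 50 bases after a gene's start, 300 bases in all. Letters are lower case, 5′ to 3′ on the strand of the gene, and capitals mark each core on either strand, so that a core on the other strand reads CACGT or CACGC.
P4HA1: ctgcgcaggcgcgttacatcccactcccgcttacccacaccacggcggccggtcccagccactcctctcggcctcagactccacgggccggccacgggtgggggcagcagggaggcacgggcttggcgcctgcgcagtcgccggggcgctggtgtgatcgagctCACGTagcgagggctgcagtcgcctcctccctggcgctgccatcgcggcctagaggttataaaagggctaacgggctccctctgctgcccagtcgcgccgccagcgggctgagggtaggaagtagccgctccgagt
P4HA2: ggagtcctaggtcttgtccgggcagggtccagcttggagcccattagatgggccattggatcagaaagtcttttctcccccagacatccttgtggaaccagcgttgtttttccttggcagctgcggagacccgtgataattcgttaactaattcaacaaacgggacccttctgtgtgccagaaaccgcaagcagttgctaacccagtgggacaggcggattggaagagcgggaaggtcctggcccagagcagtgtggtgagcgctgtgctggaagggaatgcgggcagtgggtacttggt
PLOD1: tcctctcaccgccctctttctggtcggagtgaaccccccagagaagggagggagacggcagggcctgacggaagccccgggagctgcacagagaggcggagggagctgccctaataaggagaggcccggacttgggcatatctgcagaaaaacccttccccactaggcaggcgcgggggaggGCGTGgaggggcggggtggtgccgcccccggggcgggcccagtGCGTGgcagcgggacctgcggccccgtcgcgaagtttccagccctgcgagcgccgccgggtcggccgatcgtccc
PLOD2: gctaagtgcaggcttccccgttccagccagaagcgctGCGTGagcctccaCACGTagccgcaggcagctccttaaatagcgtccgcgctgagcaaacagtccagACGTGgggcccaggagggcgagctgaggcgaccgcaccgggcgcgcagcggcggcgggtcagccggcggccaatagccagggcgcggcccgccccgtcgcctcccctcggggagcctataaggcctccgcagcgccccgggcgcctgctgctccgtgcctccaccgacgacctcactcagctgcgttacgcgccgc
LOX: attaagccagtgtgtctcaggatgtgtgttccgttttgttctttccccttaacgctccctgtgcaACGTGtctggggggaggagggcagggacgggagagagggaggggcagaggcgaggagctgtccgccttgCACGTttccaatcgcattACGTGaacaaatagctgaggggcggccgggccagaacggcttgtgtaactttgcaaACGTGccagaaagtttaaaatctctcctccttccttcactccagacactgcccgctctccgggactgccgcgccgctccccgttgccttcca
These windows are chr10:73096817-73097116 (minus strand) for P4HA1, chr5:132227042-132227341 (minus) for P4HA2, chr1:11934467-11934766 (plus) for PLOD1, chr3:146161135-146161434 (minus) for PLOD2 and chr5:122078210-122078509 (minus) for LOX. The table has 3 starts for LOX, and the one farthest upstream, which also holds the most cores, is shown.

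P4HA1 holds 1 core, an ACGTG on the other strand whose window position begins at -86 from the start. PLOD1 holds 2 cores, both GCGTG, and PLOD2 holds 3, of which 2 are ACGTG. LOX holds 4, all ACGTG, beginning at -185, -116, -98 and -42 from its start, while the windows of its other starts hold 2 cores each, 1 of them ACGTG and 1 GCGTG. P4HA2 holds none in this window. Of the other members in the table, P4HB holds 1 core and PLOD3, LOXL1 and LOXL4 hold none. No cores overlap each other in the printed windows. Of all 35116 promoters in the table, 21.4% hold ACGTG, 36.5% hold GCGTG and 48.4% hold either, so a core is common and describes a sequence, not a bound site.

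The values are RPKM as the authors deposited them, that is, read counts divided by transcript length and by the mapped reads of the library, so levels of different genes can be set side by side per length. Fold changes and their adjusted p values come from limma on log2(RPKM + 0.5) in 11933 genes with at least 1 RPKM in at least 2 libraries, with Benjamini-Hochberg adjustment over those genes and a threshold of 0.05. The added 0.5 makes the fold change of a gene with little RNA smaller than the ratio of its levels. Of the 10 members 8 were tested, and LOXL1 and LOXL4 were below the minimum. LOX reached 1 RPKM in 4 libraries, all hypoxia libraries of 48 hr and 6 days, so it entered the test only through the groups where it was high. RNA was measured in bulk, so less RNA per cell and fewer cells that hold it cannot be told apart.

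Read totals implied by the precursor values were 25.2 to 51.8 M (mega) reads per library. EPCAM (33.2 to 42.2 RPKM) and KRT18 (23.7 to 38.2 RPKM), both epithelial, were present in every library, as was the mesenchymal VIM (712 to 989 RPKM), while the epithelial KRT19 and CDH1 and the ovarian carcinoma markers PAX8 and MUC16 were at most 0.0819 RPKM in any library. No endothelial or leukocyte marker reached 1 RPKM. As a check, 8 genes of the response to low oxygen were tested, HIF1A among them. Of these, 6 were higher in hypoxia at 6 hr and 7 at 48 hr and at 6 days. Among all genes tested, 3.39%, 9.24% and 23.9% were higher at the 3 times. Library 4, of hypoxia at 6 hr, stood apart: 12 genes had at least 1 RPKM there and at least 5 times the highest of the other 11 libraries, against 0 to 4 such genes in any other library. They include HBB, a haemoglobin chain (20.2 RPKM, against 0.0417 to 0.549 elsewhere), and the fibroblast collagen chain COL1A2 (3.06 RPKM, against 0.0244 to 0.125), and the members' calls of 6 hr are also given without that library where they differ. The calls of other named genes are given with all libraries.

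**Figure D1:**
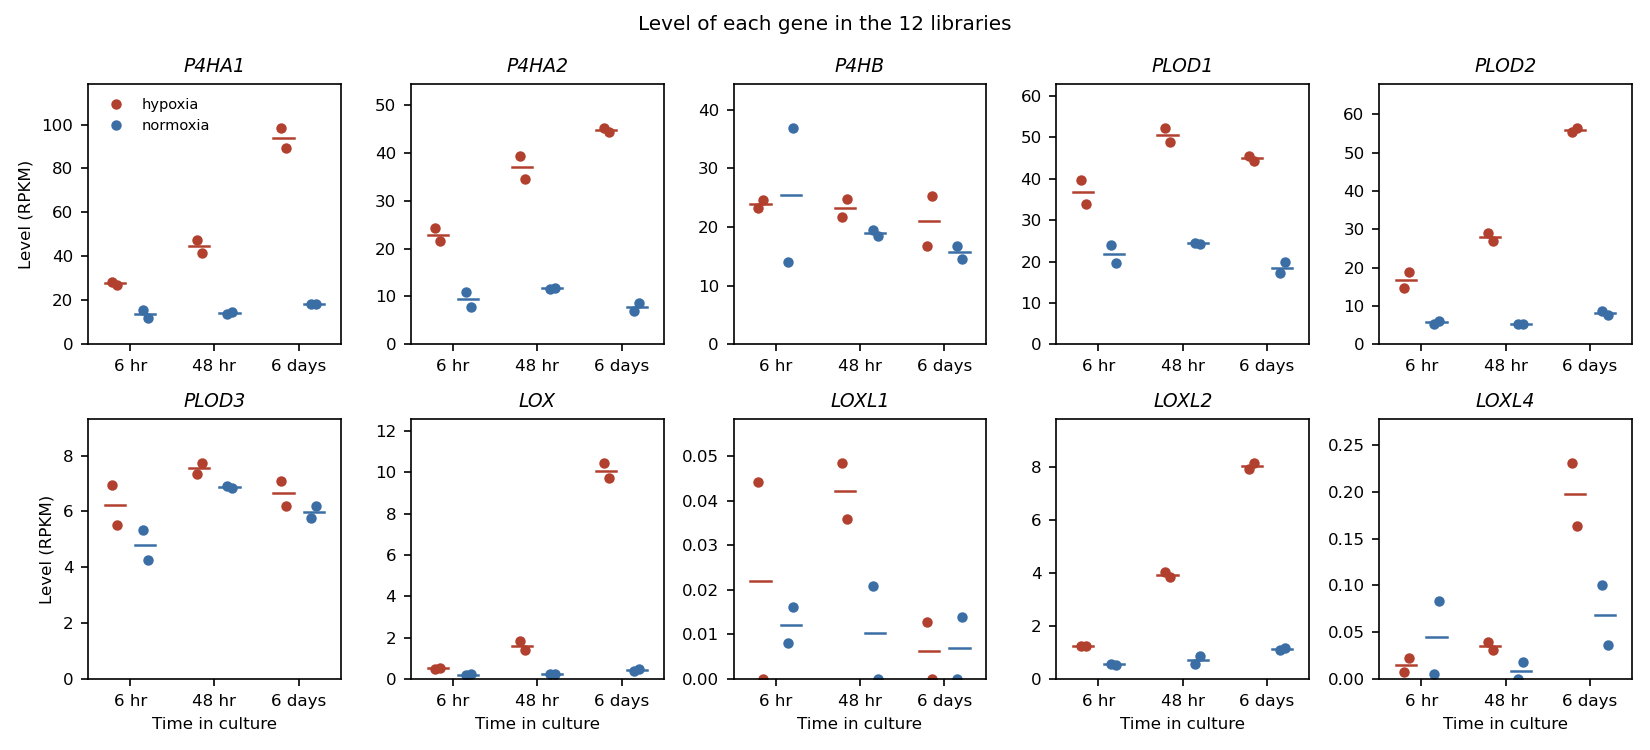
Level of each of the 10 genes (RPKM, vertical axes from 0, each with its own scale) in the 12 libraries by time in culture. Points are libraries and bars are group means of 2 libraries, hypoxia in red and normoxia in blue. LOX averaged 10.1 RPKM in hypoxia at 6 days, and LOXL1 stayed at or under 0.0485 RPKM in every library.

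Of the 8 tested members, 6 were higher in hypoxia at each of the 3 times, and the 6 were the same genes: P4HA1, P4HA2, PLOD1, PLOD2, LOX and LOXL2. LOX counts among the 8 only through hypoxia libraries, where it was high. P4HB and PLOD3 did not pass the test at any time, and no member was lower in hypoxia. Leaving out library 4 left 5 called at 6 hr, beside 340 of all genes called higher, and leaving out library 3, the other hypoxia library of that time, left 3, beside 172. Among all genes tested, 3.39% were called higher at 6 hr, 9.24% at 48 hr and 23.9% at 6 days, so the members' count is to be read against a larger background at 6 days. Genes called lower made up 0.201%, 2.89% and 18.3%. Quantile normalization gave 348 higher and 109 lower calls at 6 hr, 938 and 682 at 48 hr, and 2708 and 3276 at 6 days, against 404 and 24, 1103 and 345, and 2852 and 2187 in the fit as reported.

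The alpha subunits P4HA1 and P4HA2 rose in hypoxia at every time. P4HA1, the catalytic subunit found in most cells, had 28.6 and 27.0 RPKM in hypoxia at 6 hr, against 15.6 and 11.9 RPKM in normoxia. At 48 hr it had 47.5 and 41.5 RPKM in hypoxia, against 13.6 and 14.9 RPKM in normoxia. At 6 days it had 98.5 and 89.3 RPKM in hypoxia, against 18.4 and 18.5 RPKM in normoxia. The groups did not overlap at any time, and the lowest hypoxia library of each time lay above the highest of the one before. The log2 fold changes were 1.00 ± 0.13 (SE, limma adjusted p = 0.000817), 1.61 ± 0.13 (adjusted p = 9.42e-06) and 2.31 ± 0.13 (adjusted p = 2.52e-07) at 6 hr, 48 hr and 6 days, n = 2 libraries a group.

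P4HA2, an alpha subunit that forms its own enzyme with P4HB, had 24.2 and 21.5 RPKM in hypoxia at 6 hr, against 10.99 and 7.87 RPKM in normoxia. It had 39.3 and 34.6 RPKM in hypoxia at 48 hr, against 11.6 and 11.7 RPKM in normoxia. After 6 days P4HA2 had 45.2 and 44.4 RPKM in hypoxia, against 6.92 and 8.59 RPKM in normoxia. Hypoxia lay above normoxia at each time without overlap, and the lowest of the 12 libraries was a normoxia library of 6 days. P4HA2 had log2 fold changes of 1.25 ± 0.15 (adjusted p = 0.000471), 1.62 ± 0.15 (adjusted p = 2.71e-05) and 2.46 ± 0.15 (adjusted p = 4.62e-07). No core was seen in the P4HA2 window printed above.

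The third alpha subunit was nearly absent. P4HA3 had at most 0.158 RPKM in any library, and its values give 20 reads in the 2 hypoxia libraries of 6 hr against 13 in normoxia, 13 against 10 at 48 hr and 20 against 13 at 6 days. It was below the minimum and was not tested. P4HA3 overlaps PPME1 on the genome, and PPME1 averaged 20.03 RPKM in hypoxia and 12.4 RPKM in normoxia at 6 hr, 24.1 and 13.7 RPKM at 48 hr, and 26.8 and 12.1 RPKM at 6 days. Its part in the P4HA3 reads was not tested.

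P4HB, the shared beta subunit, was not called at any time. It had 23.2 and 24.6 RPKM in hypoxia at 6 hr, against 14.1 and 36.9 RPKM in normoxia. It had 21.8 and 24.7 RPKM in hypoxia at 48 hr, against 19.5 and 18.5 RPKM in normoxia, and 16.8 and 25.3 RPKM at 6 days, against 16.7 and 14.6 RPKM in normoxia. The normoxia libraries of 6 hr differed by 1.36 on the log2 scale, and only 0.268% of genes differed more within that pair. The log2 fold changes were 0.06, 0.28 and 0.39, each with an SE of 0.33 (limma adjusted p = 0.948, 0.634 and 0.367). The fit shares its spread over all 6 groups, so the 6 hr normoxia pair also widens the SE of the later times. Both hypoxia libraries lay above both normoxia libraries at 48 hr and at 6 days, at 6 days barely (16.75 against 16.74 RPKM). At 48 hr the limma adjusted p was 0.0631 to 0.798 over the 7 alternatives other than leaving out 1 library. The 95% interval at 6 days ran from 0.794 to 2.15 times normoxia, and includes both a lower and a higher level.

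The share of P4HA1 among the alpha subunits was highest at 6 days in both oxygen levels. P4HA1 made up 54.7 ± 1.09% of the summed RPKM of P4HA1, P4HA2 and P4HA3 in hypoxia at 6 hr, against 59.2 ± 0.926% in normoxia (SD, n = 2 each). At 48 hr the shares were 54.6 ± 0.144% in hypoxia and 54.8 ± 1.33% in normoxia. At 6 days they were 67.6 ± 1.24% in hypoxia and 70.3 ± 2.98% in normoxia. The ratio of the alpha subunits summed to P4HB was 2.28 and 1.97 in hypoxia at 6 hr, against 1.89 and 0.537 in normoxia. It was 3.99 and 3.09 in hypoxia at 48 hr, against 1.30 and 1.44, and 8.59 and 5.29 in hypoxia at 6 days, against 1.52 and 1.86 in normoxia. Hypoxia lay above normoxia at each time, with a narrow gap at 6 hr, where 1 normoxia library was close to the hypoxia pair.

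**Figure D2:**
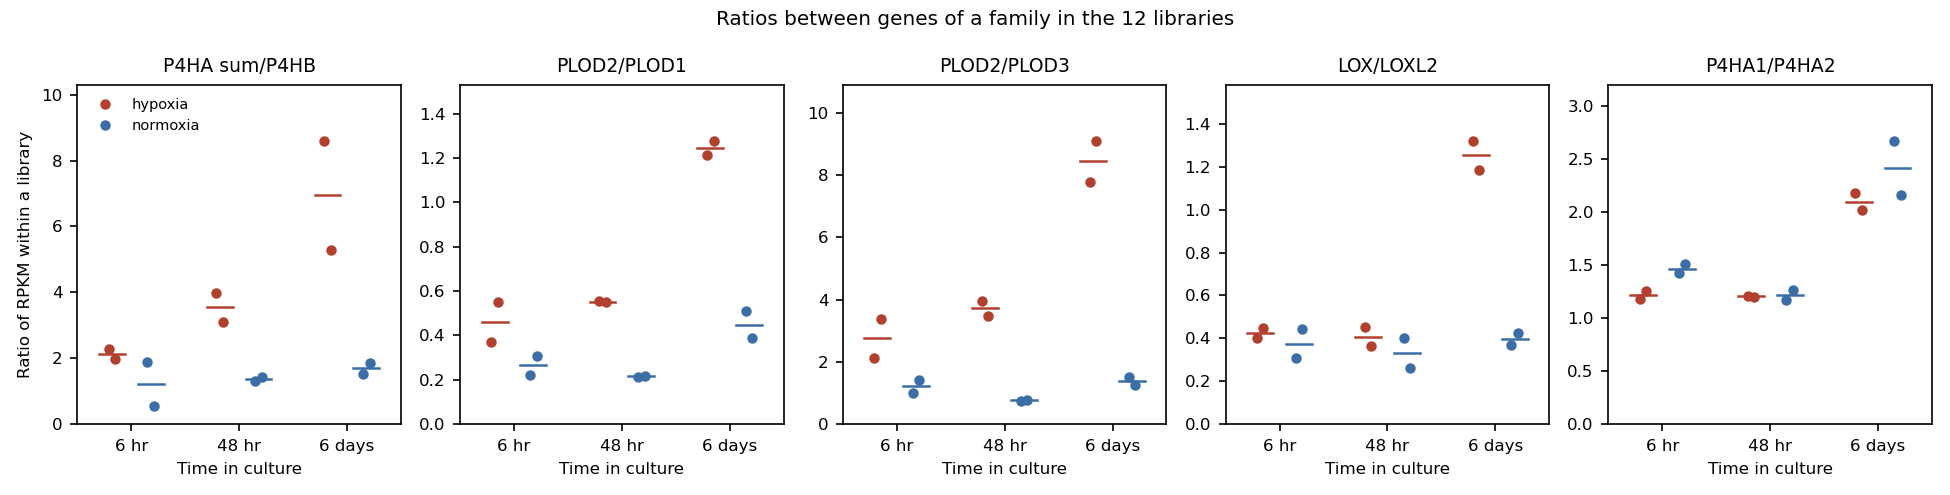
Ratios of RPKM within each library (vertical axes from 0) by time, hypoxia in red and normoxia in blue, for the alpha subunits summed over P4HB, PLOD2 over PLOD1, PLOD2 over PLOD3, LOX over LOXL2 and P4HA1 over P4HA2. Points are libraries and bars are group means. PLOD2 over PLOD1 averaged 1.24 in hypoxia and 0.448 in normoxia at 6 days, and LOX over LOXL2 averaged 1.25 and 0.399.

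Among the lysyl hydroxylases, PLOD2 rose most, PLOD1 rose less and PLOD3 did not pass the test. PLOD2 had 14.7 and 18.7 RPKM in hypoxia at 6 hr, against 5.32 and 6.08 RPKM in normoxia. It had 29.0 and 26.9 RPKM in hypoxia at 48 hr, against 5.22 and 5.32 RPKM in normoxia. By 6 days the level was 55.2 and 56.5 RPKM in hypoxia, against 8.75 and 7.70 RPKM in normoxia. The groups did not overlap at any time. PLOD2 had log2 fold changes of 1.47 ± 0.12 (adjusted p = 2.55e-05), 2.30 ± 0.12 (adjusted p = 3.15e-07) and 2.69 ± 0.12 (adjusted p = 6.03e-08), and by fold change PLOD2 stood at rank 34, 21 and 21 of 11933 genes.

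PLOD1, which hydroxylates lysines of the helical part of collagen, was the most abundant lysyl hydroxylase in normoxia. It had 39.6 and 34.0 RPKM in hypoxia at 6 hr, against 24.0 and 19.7 RPKM in normoxia, and 52.3 and 48.9 RPKM in hypoxia at 48 hr, against 24.4 and 24.3 RPKM. At 6 days it had 45.6 and 44.2 RPKM in hypoxia, against 17.2 and 19.8 RPKM in normoxia. Its highest group was therefore hypoxia at 48 hr, not 6 days, although the ratio to normoxia was largest at 6 days. The log2 fold changes were 0.74 ± 0.12 (adjusted p = 0.00386), 1.04 ± 0.12 (adjusted p = 0.000138) and 1.26 ± 0.12 (adjusted p = 1.33e-05). The PLOD1 call at 6 hr was lost in 1 of 11 alternative fits, when 1 library was left out. Over the fits without 1 library the log2 fold change at 6 hr ran from 0.60 to 0.88.

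PLOD3, which also carries a glycosyltransferase activity, stayed between 4.25 and 7.75 RPKM in the 12 libraries. It had 6.93 and 5.53 RPKM in hypoxia at 6 hr, against 5.32 and 4.25 RPKM in normoxia, 7.35 and 7.75 RPKM at 48 hr, against 6.90 and 6.83 RPKM, and 7.09 and 6.21 RPKM at 6 days, against 5.77 and 6.18 RPKM in normoxia. Both hypoxia libraries lay above both normoxia libraries at each time, at 6 days barely (6.21 against 6.18 RPKM), and none of these differences was called. The log2 fold changes were 0.35, 0.13 and 0.14, each with an SE of 0.12 (limma adjusted p = 0.177, 0.557 and 0.385). At 6 hr the 95% interval was 1.05 to 1.54 times normoxia, with a limma p of 0.0173 before adjustment. At 6 days it was 0.913 to 1.33 times normoxia.

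PLOD2 passed PLOD1 only in hypoxia at 6 days, where it was 1.21 and 1.28 times PLOD1 in the 2 libraries. In the other 10 libraries it was 0.214 to 0.555 times PLOD1. As a share of the 3 lysyl hydroxylases summed, PLOD2 made up 28.1 ± 5.72% in hypoxia and 17.8 ± 3.42% in normoxia at 6 hr (SD, n = 2 each). At 48 hr it made up 32.5 ± 0.348% in hypoxia and 14.4 ± 0.200% in normoxia, and at 6 days 52.0 ± 1.15% and 25.2 ± 3.34%. Its share in normoxia was thus also higher at 6 days than at 48 hr.

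**Figure D3:**
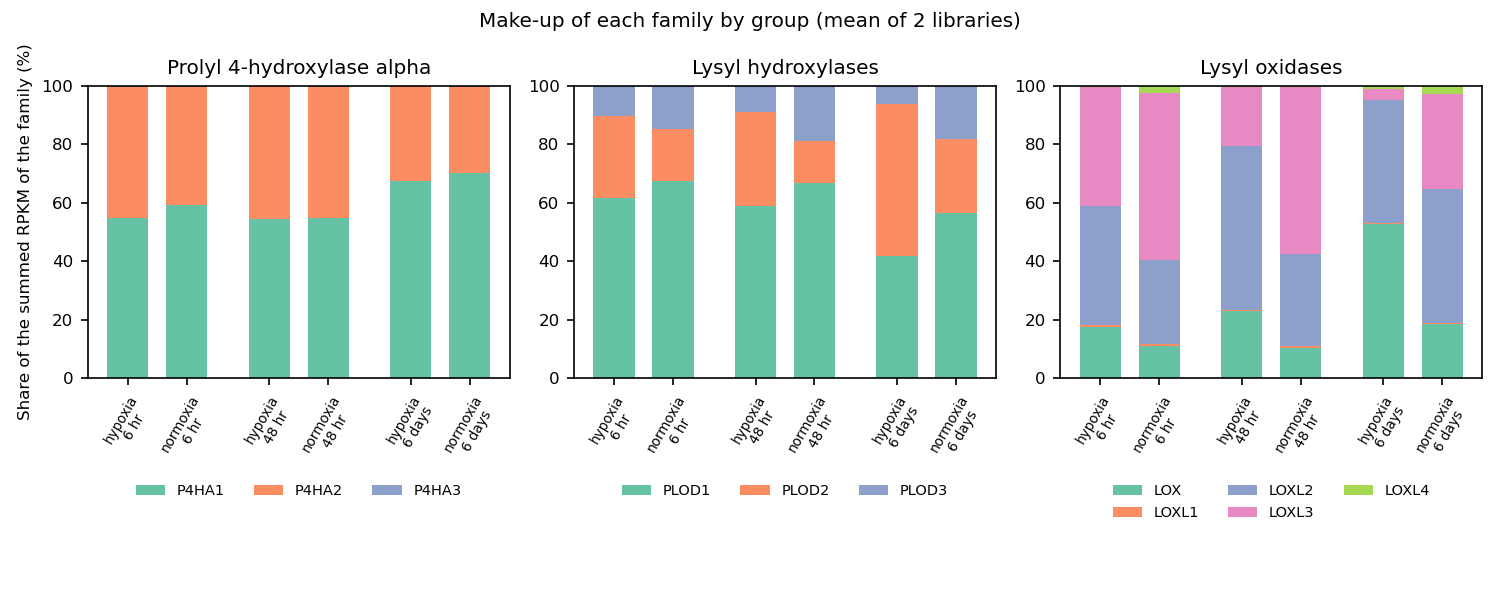
Share of each gene in the summed RPKM of its family (%, stacked from 0 to 100) by group, as the mean of 2 libraries, with hypoxia to the left of normoxia at each time. LOXL3 made up 3.78% of the lysyl oxidases in hypoxia at 6 days and 32.5% in normoxia, and PLOD2 made up 52.0% and 25.2% of the lysyl hydroxylases.

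The lysyl oxidases started from little RNA, and LOX had the widest range of the 8 tested members. LOX, the enzyme that gives the family its name, had 0.509 and 0.556 RPKM in hypoxia at 6 hr, against 0.177 and 0.235 RPKM in normoxia. It had 1.82 and 1.40 RPKM in hypoxia at 48 hr, against 0.223 and 0.228 RPKM in normoxia. At 6 days it had 10.5 and 9.70 RPKM in hypoxia, against 0.402 and 0.507 RPKM in normoxia. The groups did not overlap at any time, and the 12 libraries spanned 59.2-fold. The ratio of mean RPKM was 2.58, 7.13 and 22.2 at the 3 times, while the log2 fold changes on the scale with 0.5 added were 0.55 ± 0.12 (adjusted p = 0.0330), 1.53 ± 0.12 (adjusted p = 1.20e-05) and 3.47 ± 0.12 (adjusted p = 2.32e-08). At 6 days LOX stood at rank 5 of 11933 genes by fold change, a set it entered only through hypoxia libraries of 48 hr and 6 days. The call at 6 hr was lost in 9 of 11 alternative fits, with adjusted p over the 11 from 0.00901 to 0.139, and without library 4 the limma adjusted p was 0.130.

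LOX overlaps SRFBP1 on the genome, and whether reads were counted by strand is not given in the sources used here. SRFBP1 averaged 5.76 RPKM in hypoxia and 6.02 RPKM in normoxia at 6 hr, 5.21 and 5.97 RPKM at 48 hr, and 4.55 and 3.85 RPKM at 6 days. Its group means thus lay between 3.85 and 6.02 RPKM, and its part in the LOX reads was not tested. LOX is also a gene of fibroblasts, and the 9 fibroblast markers summed to 37.2 to 39.0 RPKM in hypoxia at 6 hr, against 31.3 to 36.7 RPKM in normoxia. The sums were 41.7 to 45.0 RPKM in hypoxia at 48 hr, against 29.1 to 31.1 RPKM, and 44.5 to 48.1 RPKM in hypoxia at 6 days, against 34.1 to 35.6 RPKM in normoxia. Of 4 fibroblast markers tested, LUM (log2 fold changes of 1.11 and 0.86) and DCN (0.54 and 0.32) were called higher at 48 hr and at 6 days and COL3A1 and THY1 at no time, while PDGFRA, PDGFRB and FAP were at most 0.201 RPKM in any library. The part of these markers in the LOX result was not tested.

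LOXL2, which is known for cross-linking basement membrane collagen, had 1.26 and 1.25 RPKM in hypoxia at 6 hr, against 0.572 and 0.532 RPKM in normoxia. It had 4.03 and 3.84 RPKM in hypoxia at 48 hr, against 0.554 and 0.868 RPKM in normoxia. The 6-day level was 7.93 and 8.17 RPKM in hypoxia, against 1.08 and 1.19 RPKM in normoxia. The groups did not overlap at any time. LOXL2 had log2 fold changes of 0.74 ± 0.12 (adjusted p = 0.00547), 1.88 ± 0.12 (adjusted p = 1.78e-06) and 2.39 ± 0.12 (adjusted p = 1.57e-07). Its call at 6 hr was lost in 1 of 11 alternative fits, when 1 library was left out. Over the fits without 1 library the log2 fold change at 6 hr ran from 0.71 to 0.76. LOXL2 led LOX in RPKM in the 10 libraries outside hypoxia at 6 days, where LOX was 1.32 and 1.19 times LOXL2.

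LOXL1 and LOXL4 were near the detection limit. LOXL1, known for its part in elastic fibres, was listed at 0 in 4 of 12 libraries, where a count of 0 allows up to 3 reads, or 0.0275 to 0.0505 RPKM. Its values in all 12 libraries give 17 reads together. LOXL4 gave 4 reads in the hypoxia libraries of 6 hr against 9 in normoxia, and 9 against 3 at 48 hr. At 6 days it gave 28 and 15 reads in hypoxia (0.231 and 0.163 RPKM), against 11 and 4 reads in normoxia (0.101 and 0.0361 RPKM). The groups did not overlap at 6 days, and with no minimum level, in a fit of 21540 genes, LOXL4 had a log2 fold change of 0.29 on the scale with 0.5 added (limma adjusted p = 0.0248). Counts this low carry counting error that the fit on RPKM does not model. The family member LOXL3, outside the 10, had 1.25 and 1.11 RPKM on average in hypoxia and normoxia at 6 hr, 1.41 and 1.26 RPKM at 48 hr, and 0.722 and 0.800 RPKM at 6 days, and was not called at any time. As a share of the 5 lysyl oxidases summed, LOX made up 52.9 ± 1.27% in hypoxia and 18.4 ± 2.57% in normoxia at 6 days (SD, n = 2 each).

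**Figure D4:**
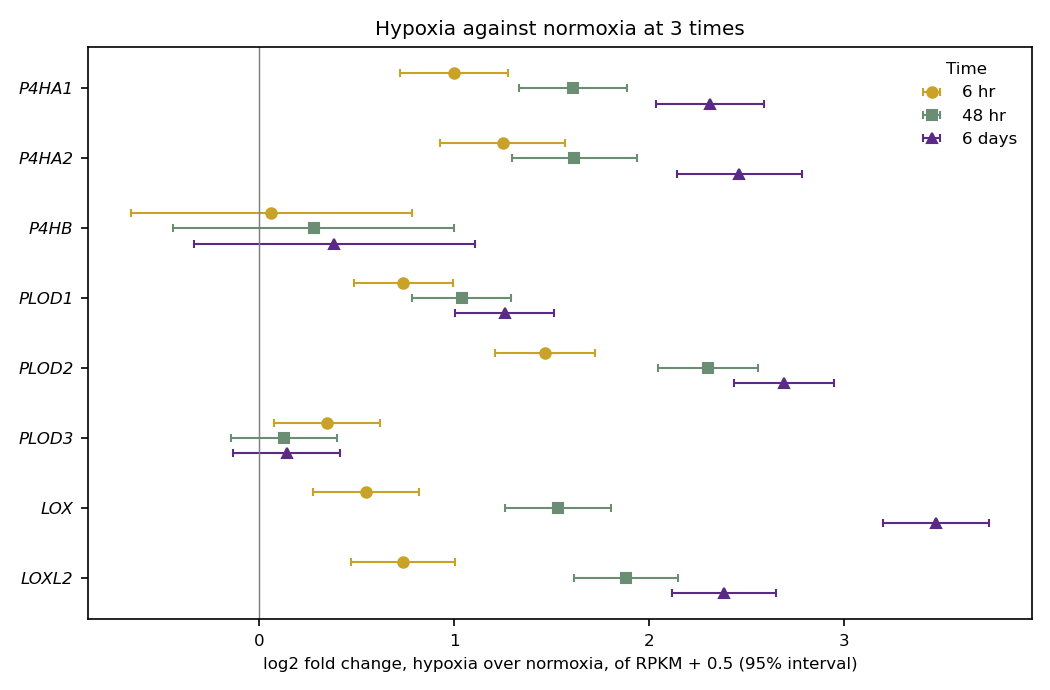
Log2 fold change of hypoxia over normoxia on RPKM + 0.5 (horizontal axis) for the 8 tested genes at 6 hr, 48 hr and 6 days, with 95% intervals from limma. The 3 intervals of P4HB span 0 and reach from -0.66 to 1.11, and LOX runs from 0.55 at 6 hr to 3.47 at 6 days.

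Whether the effect of hypoxia differed between times was tested in the same fit. From 6 hr to 48 hr the effect grew for LOX (0.98 ± 0.18 on the log2 scale, limma adjusted p = 0.0349) and LOXL2 (1.15 ± 0.17, adjusted p = 0.0143), where 0.511% of all genes were called as growing. The difference for PLOD2 was 0.83 and missed the threshold (adjusted p = 0.0565). From 48 hr to 6 days the effect grew for LOX (1.94 ± 0.18, adjusted p = 0.000419), P4HA2 (0.85 ± 0.21, adjusted p = 0.0278) and P4HA1 (0.70 ± 0.18, adjusted p = 0.0315), with 5.38% of all genes called. Between 6 hr and 6 days all 6 responding members grew, by 2.92 for LOX, 1.65 for LOXL2, 1.31 for P4HA1, 1.23 for PLOD2, 1.21 for P4HA2 and 0.52 for PLOD1 (limma adjusted p from 7.95e-06 to 0.0444), against 11.2% of all genes. The calls between neighbouring times were often lost when 1 library was left out, which also leaves fewer residual degrees of freedom. Calls over all genes fell in most of these fits as well, and the cause of the losses was not tested. From 6 hr to 48 hr the LOX call was lost in 6 of 8 such fits, with log2 differences from 0.84 to 1.13. The LOXL2 call was lost in 3 of 8, with differences from 0.96 to 1.33. From 48 hr to 6 days LOX passed in the 6 alternatives other than leaving out 1 library. Without 1 library its log2 differences ran from 1.80 to 2.08. Those of P4HA1 ran from 0.61 to 0.80 and those of P4HA2 from 0.70 to 0.99.

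Within hypoxia, all 6 were higher at 48 hr than at 6 hr (4.94% of all genes), by log2 changes from 0.46 for PLOD1 to 1.34 for LOXL2 (limma adjusted p from 0.000157 to 0.0430). Without library 4 the count was 3, beside 83 of all genes called higher, and without library 7 it was 2, beside 77, against 589 of all genes with all libraries. From 48 hr to 6 days 4 were higher, LOX by 2.33, P4HA1 by 1.07, PLOD2 by 0.99 and LOXL2 by 0.95, where 30.4% of all genes were called higher, so 4 of 8 is not far from the background. P4HA2 (0.28) and PLOD1 (-0.17) did not pass the test in that step.

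Within normoxia none of the 8 was called between 6 hr and 48 hr in limma's fit, where 0.00838% of all genes were called higher and 0.0838% lower. Before adjustment 1 of the 8, PLOD3, had a p under 0.05 (higher by 0.49 on the log2 scale, limma adjusted p = 0.144). Without library 1, 2 members were called higher and 1 lower, and the calls over all genes were then 1166 higher and 145 lower, against 1 and 10 with all libraries. From 48 hr to 6 days in normoxia, P4HA1 (0.37), PLOD2 (0.59), LOX (0.39) and LOXL2 (0.45) were higher and P4HA2 (-0.57) and PLOD1 (-0.39) were lower on the log2 scale (limma adjusted p from 0.00112 to 0.0257). In this step 27.0% of all genes were called higher and 32.4% lower, so counts of 4 and 2 of 8 are not far from the background. Leaving out single libraries left 1 to 3 members called higher and 0 to 2 called lower, with 1 higher without library 5 or library 10 and 0 lower without library 9.

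Across the 12 libraries the members fell into more than one shape, as a description with no test, since libraries of a group share their condition. P4HA1 and PLOD2 had a Pearson r of 0.98 on log2(RPKM + 0.5), P4HA1 and LOXL2 of 0.98, and LOX and LOXL2 of 0.96. P4HA2 and PLOD1 had 0.98 with each other, while PLOD1 and LOX had 0.69. P4HB had at most 0.25 with any of the others. For P4HA1, PLOD2, LOX and LOXL2 the group means were highest in hypoxia at 6 days, then in hypoxia at 48 hr and at 6 hr. Normoxia at 6 days came next. Ranges of libraries were apart at each of these steps, for LOX barely at the last (0.509 against 0.507 RPKM). The normoxia groups of 48 hr and 6 hr of these genes overlapped at the low end. For P4HA2 and PLOD1 normoxia at 6 days was the lowest group, with a range that overlapped normoxia at 6 hr.

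The non-members most like each member over the 12 libraries were found among all other tested genes. For P4HA1 they were HPCAL4 (r = 0.993), GLRX, PAQR7, PRSS53 and VKORC1, and for P4HA2 they were DUSP3 (r = 0.995), MYO1E, PPME1, TBC1D9B and DDX41. For PLOD1 they were GYS1 (r = 0.989), which makes muscle-type glycogen synthase, TBC1D9B, MYO1E, SLC16A3 and AVPI1. For PLOD2 they were KIAA1244 (r = 0.994), C2orf72, PRELID2, ENO2, an enolase, and PDK3, a pyruvate dehydrogenase kinase. For LOX they were PAQR5 (r = 0.994), C19orf77, LOC440461, GAD1 and PDE4C, and for LOXL2 they were SNCB (r = 0.993), PAM, HPCAL4, UPK1A and VKORC1. TBC1D9B and MYO1E were on the lists of both P4HA2 and PLOD1, and HPCAL4 and VKORC1 on those of both P4HA1 and LOXL2.

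The shares of all genes called higher were 3.39%, 9.24% and 23.9% at 6 hr, 48 hr and 6 days, and of those called lower 0.201%, 2.89% and 18.3%, and the counts in the lists of related genes are set against them. Of 10 other enzymes of collagen modification and close relatives 8 were tested, and none was called at 6 hr, 1 was lower at 48 hr, and 1 was higher and 3 lower at 6 days. LEPREL1 (P3H2), a prolyl 3-hydroxylase, had 29.9 and 29.5 RPKM in hypoxia at 48 hr, against 36.2 and 37.2 RPKM in normoxia, and 18.5 and 20.1 RPKM at 6 days, against 35.5 and 33.4 RPKM. It fell by 0.30 and 0.82 on the log2 scale (limma adjusted p = 0.0359 and 2.56e-05). Of the collagen galactosyltransferases, GLT25D1 rose by 0.37 at 6 days and GLT25D2 fell by 0.68 (limma adjusted p = 0.0234 and 0.00621), and LEPREL2 fell by 0.32 (adjusted p = 0.0354). The median log2 fold change of the 8 was -0.16 at 6 days, against 0.04 over all genes.

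Of 13 collagen chaperones and secretion factors 11 were tested, and none was called at 6 hr, 2 were higher and 1 lower at 48 hr, and 4 were higher at 6 days, where 23.9% of all genes were. For so short a list these counts are not far from the background. SERPINH1, the collagen chaperone HSP47, had 49.1 and 50.02 RPKM in hypoxia at 48 hr, against 36.9 and 37.5 RPKM in normoxia, and 36.5 and 36.8 RPKM at 6 days, against 22.7 and 24.5 RPKM. Its log2 fold changes were 0.41 and 0.62 (limma adjusted p = 0.0240 and 0.000685). FKBP10, a prolyl isomerase that works with PLOD2, rose by 0.43 at 48 hr (adjusted p = 0.0438), and FKBP9 by 0.33 at 6 days (adjusted p = 0.0342). TMEM38B, an ion channel of the endoplasmic reticulum, fell by 0.38 at 48 hr and rose by 0.56 at 6 days (limma adjusted p = 0.0413 and 0.00173), and KLHL12 rose by 0.24 at 6 days (adjusted p = 0.0457).

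Genes of disulfide formation, the other task of P4HB, were called higher in 1 of 18 tested at 6 hr, 2 at 48 hr and 7 at 6 days, and lower in 0, 1 and 3. The 2 higher calls at 48 hr and the 3 lower calls at 6 days are near the shares of all genes, 9.24% and 18.3%, and at 6 days 23.9% of all genes were higher. ERO1L, the oxidase that recharges protein disulfide isomerase, had 61.4 and 59.7 RPKM in hypoxia at 6 days, against 15.3 and 16.0 RPKM in normoxia. Its log2 fold changes were 0.53, 0.84 and 1.92 (limma adjusted p = 0.0410, 0.00103 and 9.19e-07). PRDX4 (1.03, adjusted p = 0.000148), a peroxiredoxin, and PDIA3 (0.92, adjusted p = 3.87e-05), a disulfide isomerase, also rose at 6 days, while TMX2 fell by 0.53 (limma adjusted p = 0.00273). PDIA3 was also higher at 48 hr (0.33, limma adjusted p = 0.0492) and TMX4 lower (-0.40, adjusted p = 0.0312).

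Most collagen chains were below the minimum level. Of 41 collagen chains 10 were tested, with 1 higher at 6 hr, 2 higher at 48 hr, and 4 higher and 4 lower at 6 days, where 23.9% of all genes were higher and 18.3% lower. COL6A1, a chain of the beaded filaments of collagen VI, had 1.78 and 2.20 RPKM in hypoxia at 48 hr, against 0.709 and 0.768 RPKM in normoxia, and 6.68 and 6.61 RPKM at 6 days, against 1.26 and 1.27 RPKM. Its log2 fold changes were 1.01 and 2.02 at these times (limma adjusted p = 0.000137 and 2.80e-07). COL27A1, a fibrillar collagen, rose by 0.74, 1.35 and 1.50 (limma adjusted p = 0.00691, 3.57e-05 and 6.57e-06). COL4A5, a basement membrane chain, fell by 0.93 at 6 days (adjusted p = 6.47e-05) and COL11A2 rose by 0.90 (adjusted p = 0.00383). COL27A1 and COL11A2 passed the minimum level only through hypoxia libraries. COL1A1 was at most 0.785 RPKM and COL1A2 at most 0.125 RPKM in the 11 libraries other than library 4.

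Of procollagen processing and elastic fibre genes 12 were tested, and at 6 days 1 was called higher and 4 lower, against 23.9% and 18.3% of all genes. Of 3 tested processing genes, BMP1, the protease that trims procollagen and LOX, rose by 0.46 at 6 hr (limma adjusted p = 0.0475) and was not called later. At 6 days PCOLCE2 rose by 0.43 and ADAMTS3 fell by 0.54 (limma adjusted p = 0.0163 and 0.000351). Of 9 tested genes of elastic fibres and fibronectin, EFEMP2, which brings LOX to elastin, rose by 0.86 at 48 hr (adjusted p = 0.0135). At 6 days FBN2 (-0.91), POSTN (-0.82) and LTBP1 (-0.37) fell (limma adjusted p from 1.53e-05 to 0.0100), and none of the 9 was called at 6 hr.

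The genes of the response to low oxygen were tested as a check of the labels. BNIP3, a mitophagy receptor, had log2 fold changes of 1.95, 2.51 and 3.08 at 6 hr, 48 hr and 6 days, and PDK1, a pyruvate dehydrogenase kinase, had 1.60, 2.27 and 1.81. SLC2A1, the glucose transporter GLUT1, had 2.17, 2.30 and 2.17, and PFKFB4 had 3.39, 3.73 and 2.65. CA9, a carbonic anhydrase that reached 1 RPKM only in hypoxia, was called at 48 hr and 6 days with 3.05 and 3.97. HIF1A, which is regulated mainly at the protein level, was not called, with 0.02, -0.17 and -0.37 (limma adjusted p = 0.968, 0.621 and 0.136). At 6 days LOX (3.47) lay between BNIP3 and CA9 in size, and PLOD1 (1.26) lay near VEGFA (1.16).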

How the data were processed

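Total RNA of 12 A2780 libraries, depleted of ribosomal RNA, was sequenced on a Life Technologies 5500xl instrument in single reads of 75 bases, per the labels' protocols. The gene table holds deposited RPKM, made by the authors with Partek 6.6 on build hg19 per the submitters' processing notes; aligner, gene models and strand use: not given in the sources used here. A second deposited table gives RPKM of miRNA precursors. Depth was inferred from its values: steps of whole reads, with hairpin lengths of 700 precursors, fitted 95.3 to 99.3% of low values within 0.05 reads. Reads of LOXL1, LOXL4 and P4HA3 were recovered from their RPKM steps, and their floors cover counting error only.

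Genes reaching 1 RPKM in 2 or more of the 12 libraries were tested with limma 3.58.1 under R 4.3.3, as log2(RPKM + 0.5) with one mean for each of 6 groups, an intensity trend, two-sided tests and Benjamini-Hochberg adjustment (threshold 0.05). RPKM are not counts, so no count model was run. The code was tested on simulated data. Contrasts were hypoxia against normoxia at each time, their differences between times, and steps in time. Alternatives were pseudocounts of 0.1 and 1 RPKM, no minimum level, no trend, quantile normalization, trimmed-mean centring, fits of single times, and leaving out each library.

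The members and the gene lists were chosen with earlier results of these data known. Named were the members, at most 4 called genes per list and hypoxia comparison by size of fold change, index genes of hypoxia, and, for each member called at all 3 times, the 5 non-members with the highest Pearson r. One gene was taken off the disulfide list after its values were known and is not reported here. Promoters are RefSeq (GRCh38.p14), for 9 of 10 members; no hg19 coordinate was used. Figures were drawn with matplotlib 3.10.9.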

Additional observations from a re-analysis of the deposited data

Results flagged for a closer look

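For 6 of the members the effect of hypoxia differed between times by limma's test of the difference itself (adjusted over 11933 genes, 2 libraries a group). From 6 hr to 48 hr the log2 fold change of LOX grew by 0.98 (SE 0.18, adjusted p = 0.0349) and that of LOXL2 by 1.15 (SE 0.17, adjusted p = 0.0143). From 48 hr to 6 days P4HA1 grew by 0.70, P4HA2 by 0.85 and LOX by 1.94 (limma adjusted p = 0.0315, 0.0278 and 0.000419). Of all genes tested, 0.511% were called as growing from 6 hr to 48 hr and 5.38% from 48 hr to 6 days.

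Between 6 hr and 6 days the growth was 1.31 for P4HA1, 1.21 for P4HA2, 0.52 for PLOD1, 1.23 for PLOD2, 2.92 for LOX and 1.65 for LOXL2 (limma adjusted p = 0.00108, 0.00297, 0.0444, 0.00104, 7.95e-06 and 0.000320). PLOD1 was lost in 8 of 14 alternatives and the other 5 in none of 14. Of all genes tested, 11.2% were called as growing between 6 hr and 6 days. No cause was tested.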

How the results depend on the processing

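In the 7 alternatives other than leaving out 1 library, 6 members were called at 48 hr. At 6 days 6 were called, or 7 with no minimum level, where LOXL4 was added. Over all genes, these 7 alternatives called 252 to 427 higher at 6 hr, 926 to 1348 at 48 hr and 2549 to 3724 at 6 days. At 6 hr the count was 5 to 6 in 7 alternatives and 3 to 5 when 1 library was left out, with 3 without library 3 of hypoxia. The growth from 6 hr to 48 hr, called for 2 members, was called for 1 with a pseudocount of 0.1, 0 with no minimum level, 1 with quantile normalization and 0 to 3 without 1 library. The growth from 48 hr to 6 days, called for 3, was called for 1 with no minimum level and 1 to 2 without 1 library. Over all genes, alternatives other than leaving out 1 library called 27 to 89 as growing from 6 hr to 48 hr. From 48 hr to 6 days they called 506 to 1196. In the same alternatives hypoxia at 48 hr against 6 hr gave 4 to 6 members, beside 345 to 603 of all genes called higher. Without 1 library the PLOD1 log2 change in that step ran from 0.35 to 0.57. Normoxia at 48 hr against 6 hr gave 2 higher and 1 lower without library 1, where 1166 of all genes were higher and 145 lower, against 1 and 10. Normoxia at 6 days against 48 hr gave 2 higher and 1 lower with quantile normalization, and 1 to 3 higher and 0 to 2 lower without 1 library. The only reversed value was that of P4HB at 6 hr, which ranged from -0.62 without library 1 to 0.74 without library 2. LOX at 6 hr was lost in 9 of 11 alternatives, the other called members in 2 of 55 at 6 hr and 0 of 55 at each later time. Shares of a family moved by more than 1 SD in 39 of 66 cases with 0.5 RPKM added, and hypoxia at 48 hr against 6 hr gave 399 higher and 218 lower genes with quantile normalization, against 589 and 108. The cause was not tested.

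A library left out leaves a lone sample that is assumed to vary like the other groups, and fewer residual degrees of freedom. For the growth between neighbouring times, calls over all genes also fell in most such fits. No paired analysis was possible because no library number is shared between hypoxia and normoxia, only between the gene and precursor tables of the same library. With 2 libraries a group a missed threshold does not show equal levels, and values under 1 RPKM rest on few reads.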
